A study of Mus musculus with 4 samples.

Results

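Untreated cultures of naive mouse CD4+ T cells driven for 24 h towards the Th17 fate were described here: 2 of the series' 4 RNA sequencing libraries, chosen because they received no inhibitor. Naive CD4+ T cells were sorted by flow cytometry from the spleen of C57BL/6 mice and stimulated with plate-bound antibodies to CD3 and CD28. Both cultures also received IL-1β (10 ng/ml), IL-6 (10 ng/ml), IL-23 (20 ng/ml) and neutralising antibodies to IL-4 (10 µg/ml) and IFN-γ (10 µg/ml), a condition the labels call aTh17. One culture is the untreated arm of an experiment with DMAT and is called the DMAT control below. The other is the untreated arm of an experiment with CX4945 and is called the CX4945 control. The remaining 2 libraries are cells of the same experiments given 1.5 µM DMAT or 1 µM CX4945, both inhibitors of the protein kinase CK2, for the same 24 h. Every group held 1 library. The labels do not say whether the 2 experiments used separate animals or separate days, nor whether the untreated cells received a vehicle.

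Th17 cells are helper T cells that make IL-17 and IL-22 and act at epithelial barriers and in autoimmune inflammation. Stimulation of the T cell receptor with CD28 starts growth, division and cytokine transcription. IL-6 signals through STAT3, which together with BATF and IRF4 opens the Th17 programme. IL-1β signals to NF-κB, and IL-23 stabilises the pathogenic form of these cells. TGF-β, the other cytokine often used to make Th17 cells in culture, is not among the added agents.

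The DMAT control held 2772525 exon reads and the CX4945 control 2285545, and 81.3% and 81.7% of them were unique to a place in the genome. At least 20 reads over both libraries were found for 9564 of the 37583 features, and these form the set compared between the cultures. Just inside that limit 63 features had exactly 20 reads and just outside it 58 had 19, while 23378 features had no read in either library. Levels are given in TPM, that is exon reads per kilobase of exon scaled to the same total in each library, and only this scale is used to set genes against each other. CPM, the exon reads of a feature relative to the scaled library total, are used to set libraries against each other. A count of 0 allows up to 1.09 CPM in the DMAT control and 1.31 CPM in the CX4945 control, taking 3 reads as the limit, and all intervals cover counting error at 95% only.

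The highest levels belonged to genes of protein synthesis. At least 1 TPM was reached by 11509 features in the DMAT control and 11559 in the CX4945 control, at least 100 TPM by 1941 and 1943, and at least 1000 TPM by 122 and 125. The 20 highest features held 12.1% and 11.8% of the summed level, and the 1000 highest held 63.0% and 62.6%. Ribosomal protein genes, 77 by symbol, made up 18.4% of the summed level in the DMAT control and 17.9% in the CX4945 control. Of the 20 features with the highest mean level, 14 were ribosomal protein genes, led by Rplp1 at 11691 and 10599 TPM. The others were Gm10925 (11340 and 10912 TPM), the elongation factor Eef1a1 (7757 and 8773 TPM), prothymosin Ptma (7516 and 7169 TPM), the cytosolic chaperone Hsp90ab1 (4809 and 5192 TPM), the nucleolar protein Npm1 (5166 and 4706 TPM) and the cytokine Mif (4404 and 4161 TPM). Only some of these levels rest on unique reads. Rpl4, Rpl8 and Gm10925 had all their reads placed uniquely, whereas Rpsa had 1.6% and Rps12 2.35%, so reads of these genes and of their processed copies cannot be told apart. With unique reads in place of all exon reads, the level moved for 19 of the 20 features. Every one of the 648 31-base words of the Gm10925 transcript in GENCODE M21 also occurs in the mitochondrial transcript mt-Atp6, and the tables used here hold no mitochondrial chromosome.

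T cell genes were high and genes of other cells were at or near 0. All 18 genes of a T cell identity list had at least 20 reads and 17 were at 10 TPM or more in both libraries. Cd5, a negative regulator of T cell receptor signalling, stood at 1101 and 1136 TPM in the DMAT and CX4945 controls, the adaptor Lat at 589 and 739 TPM, the kinase Lck at 386 and 377 TPM, the CD3 chain Cd3e at 248 and 276 TPM and Cd4 at 173 and 192 TPM. Of the CD8 chains Cd8a had 1 read in each library and Cd8b1 8 reads in each (5.62 and 6.87 TPM). Among 9 B cell markers, 1 of them present as 2 features, the summed count was 10 and 2 reads, with Ms4a1, Cd79b and Pax5 at 0. Among 9 myeloid markers it was 9 and 5 reads, with Lyz2, Itgam and Tyrobp at 0. The 6 neutrophil markers and the 6 red cell genes in the tables had no read in either library. Of the other marker lists, NK cell genes summed to 2 and 5 reads and platelet genes to 3 and 2. A few markers were above that background. Cd74, the MHC class II invariant chain, had 23 and 34 reads while H2-Aa and Itgax had 0. The matrix proteoglycan gene Lum had 39 and 14 reads while Col1a2, Col3a1 and Dcn had 0, and Pecam1, which T cells also make, had 47 and 58. In the DMAT and CX4945 libraries Cd74 had 7 and 34 reads, Pecam1 30 and 69 and Lum 6 and 1, so that these few transcripts differed between libraries too, and their part in the differences below was not tested.

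Among Il2 and the 14 genes of a Th17 cytokine and chemokine list, Il2 and Il17f had the highest levels in both libraries. Il2, the T cell growth factor, stood at 1502 TPM in the DMAT control and 1159 TPM in the CX4945 control. Il17f followed at 890 and 623 TPM, while its neighbour and partner Il17a had only 22 reads in each library, which is 18.7 and 22.9 TPM. Il21, which amplifies Th17 differentiation, stood at 268 and 243 TPM and the IL-6 family member Lif at 177 and 129 TPM. Il22 reached 55.9 and 85.9 TPM, with 45.7% of its reads unique. Other products of pathogenic Th17 cells were scarce at 24 h: Csf2, which encodes GM-CSF, had 4 reads and 0, and Ccl20 had none in either library. Il17f was thus far above Il17a in both cultures, and Il2 was above Il17f in both.

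The transcription factors and receptors of the Th17 programme covered a wide range of levels. Batf (649 and 651 TPM), Junb (595 and 647 TPM) and Irf4 (559 and 456 TPM) were the highest of the 16 factors listed, in both libraries. Hif1a stood at 222 and 183 TPM with 25.4% of its reads unique and Stat3 at 91.2 and 85.3 TPM. Rora, Maf and Ahr were lower, at 13.4 and 11.5, 9.43 and 8.86, and 8.56 and 4.14 TPM. Of the receptors for the added cytokines, Il12rb1, the chain shared by the IL-12 and IL-23 receptors, was highest at 187 and 259 TPM and the IL-23-specific chain Il23r stood at 42.9 and 40.1 TPM. The IL-1 receptor Il1r1 reached 40.0 and 34.4 TPM, the signalling chain Il6st 37.5 and 35.3 TPM and the IL-6 binding chain Il6ra 25.3 and 30.6 TPM. The decoy receptor Il1r2 had 4 and 3 reads. The IL-1 receptor accessory chain Il1rap was the lowest of the 12 genes listed, at 1.75 and 1.5 TPM with 32.4% of its reads unique.

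**Figure D1:**
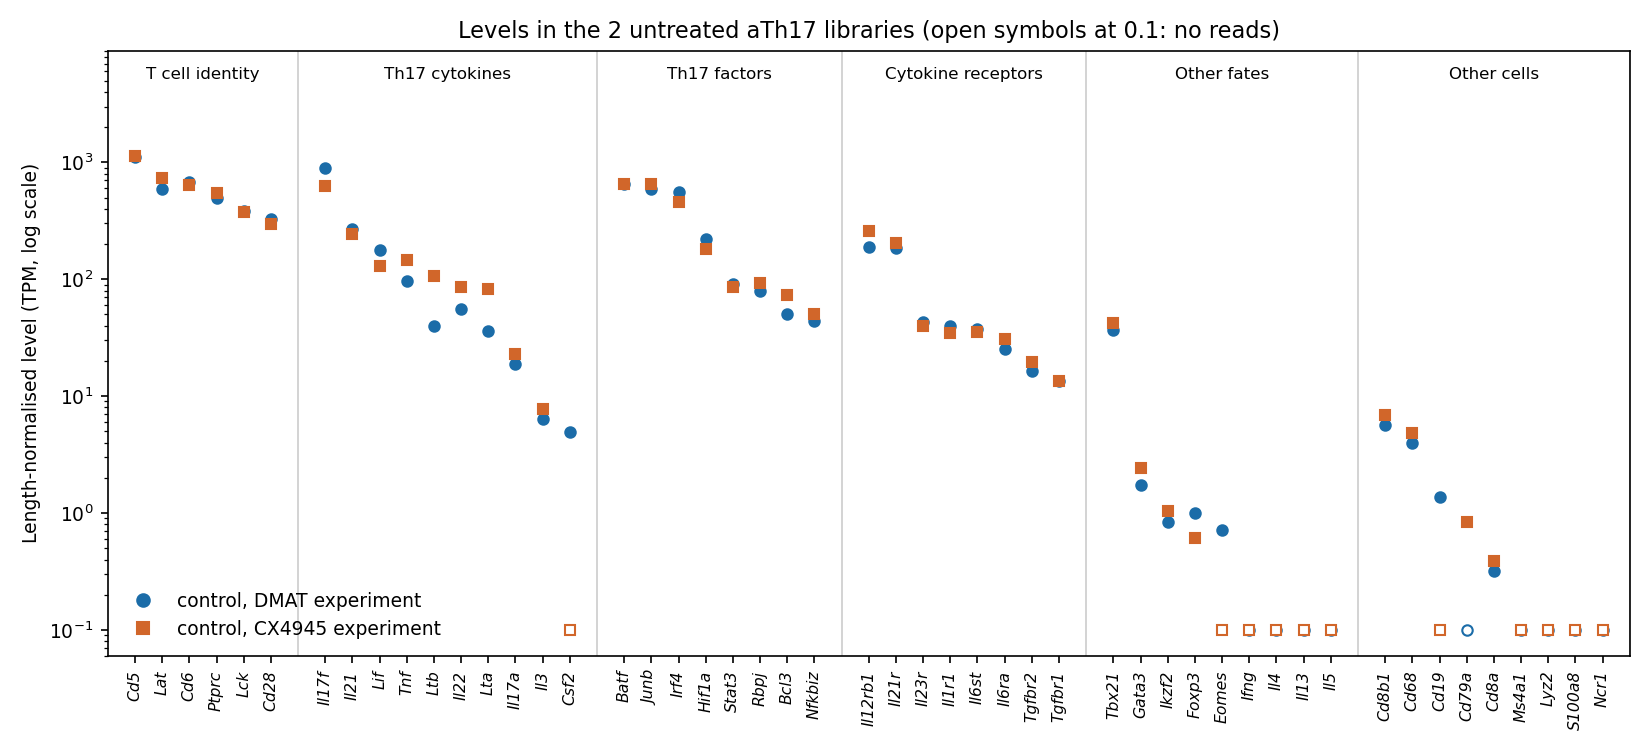
Levels (TPM, log scale) of selected genes in the DMAT control (blue circles) and the CX4945 control (orange squares), 1 library per point, grouped by role; open symbols placed at 0.1 mark genes with no read. T cell genes and Il17f lie above 100 TPM in both libraries, whereas Ifng, Il4, Il13 and Il5 had no read in either.

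Genes of rival helper fates were split. The signature cytokines of Th1 and Th2 cells, Ifng, Il4, Il5 and Il13, had no read in either untreated library. The Th2 factor Gata3 had 7 and 8 reads and the regulatory T cell factor Foxp3 4 and 2 reads. The Th1 factor Tbx21 was above that level, with 91 reads in the DMAT control and 87 in the CX4945 control (36.5 and 42.6 TPM), close to the level of Il23r. Stat4 stood at 51.6 and 51.8 TPM and Il12rb2 at 26.3 and 27.9 TPM. Listed genes of the other fates were present too. The Th2 list genes Il4ra and Stat6 stood at 139 and 174 and at 134 and 131 TPM. Folr4, of the regulatory T cell list, stood at 37.3 and 67.6 TPM. At 10 TPM or more in both libraries were 7 of 12 Th1, 4 of 9 Th2 and 3 of 10 regulatory T cell genes. Antibodies to IFN-γ and IL-4 were present in both cultures.

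Most listed genes of activation, growth and division were at 10 TPM or more. The IL-2 receptor chain Il2ra stood at 627 and 587 TPM, the transferrin receptor Tfrc at 626 and 504 TPM, Tnfrsf4 at 503 and 453 TPM and Myc at 414 and 485 TPM. The activation list covered a wide range: 23 of its 24 genes were at 10 TPM or more in both libraries, with Tnfrsf9 at 26.7 and 26.4 TPM and Cd44 at 25.7 and 28.8 TPM, while Cd83 had 7 and 3 reads. All 24 genes of a MYC and ribosome biogenesis list, all 24 S phase genes, all 20 mitosis genes and all 17 glycolysis genes were at 10 TPM or more in both libraries. Among the glycolysis genes Pkm2 (3903 and 3811 TPM) and Ldha (2657 and 2390 TPM) were highest. Among the S phase genes Pcna stood at 1209 and 1164 TPM and Mcm3 at 647 and 698 TPM. Transcripts of the naive state were still present: Tcf7 stood at 255 and 344 TPM with 17% of its reads unique, Ccr7 at 188 and 215 TPM and Satb1 at 134 and 165 TPM. By contrast Il7r, the IL-7 receptor that naive T cells carry, had 7 and 37 reads, and Klf2, a factor of quiescence and recirculation, 8 and 19.

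The 2 untreated cultures were alike in most genes and differed in a few groups. The CX4945 control had less transcript of amino acid stress genes such as Trib3, Chac1, Cth and Asns and of the desaturases Scd1, Scd2 and Fads2, and more of Il7r, S1pr1, Ltb, Lta and Egr3. At least a 2-fold difference was found for 222 of 9564 features (2.32%), 94 higher (0.983%) and 128 lower (1.34%) in the CX4945 control. With 1 library per culture this difference carries no p-value, and less RNA per cell cannot be told apart from fewer cells that make it. Over all 9564 features 4654 were higher and 4910 lower in the CX4945 control, and the median log2 ratio was -0.0081. Across the same features log2 CPM in the 2 libraries had a Pearson's r of 0.976, a description over genes that share their length and composition. The share past 2-fold fell with depth, from 11.1% of the features with 20 to 49 reads to 2.65% from 50 to under 200 reads, 0.193% from 200 to under 1000 and 0.184% at 1000 or more. The 2 features past 2-fold at 1000 or more reads were Scd2 and Trp53inp1. The counting interval of the ratio lay off 1 for 1782 features (18.6%), 848 above (8.87%) and 934 below (9.77%), so the libraries differed by more than counting error at many genes by amounts well under 2-fold.

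**Figure D2:**
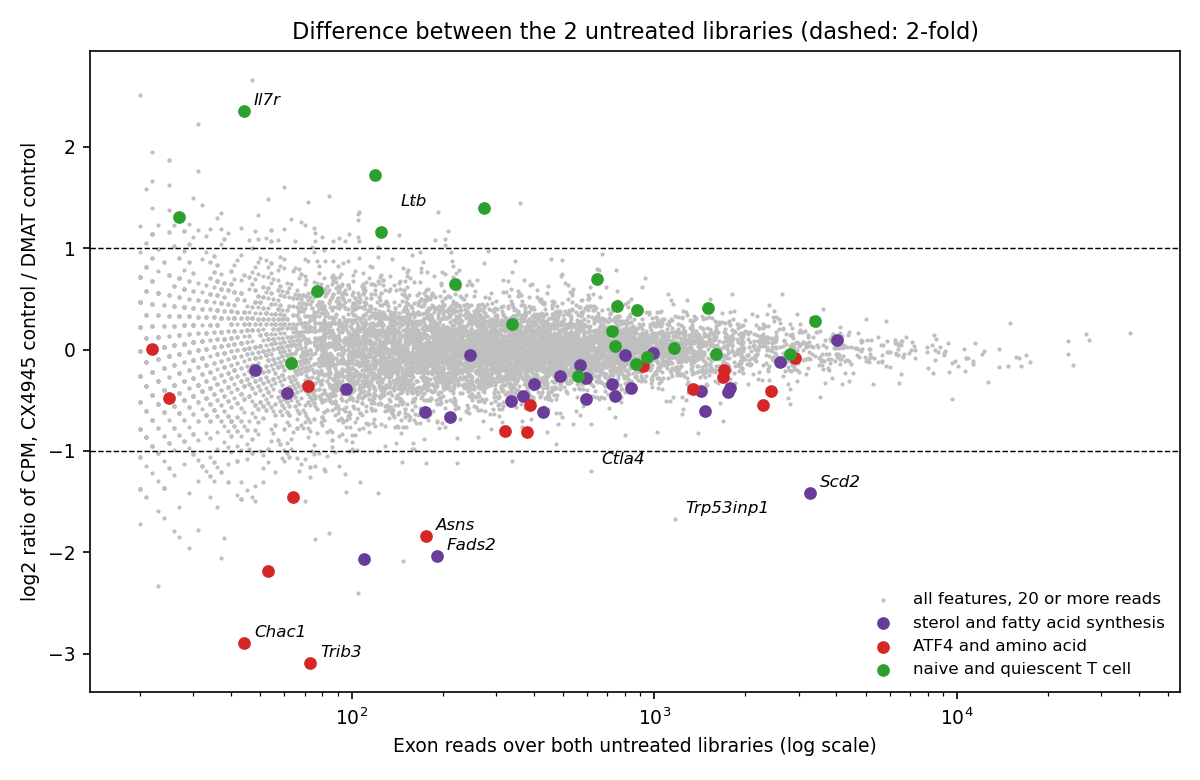
Log2 ratio of CPM (CX4945 control over DMAT control, vertical) against exon reads over both untreated libraries (horizontal, log scale) for the 9564 features, with sterol and fatty acid, ATF4 and naive T cell lists coloured. Most features lie within the dashed 2-fold lines and the scatter narrows with depth, while Trib3, Chac1, Asns, Fads2 and Scd2 lie below and Il7r and Ltb above.

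The only other libraries of these experiments are those with an inhibitor, and they were used to ask whether a difference recurs. They share no library with the untreated pair, but their cells also differ in compound and dose, so experiment and compound cannot be told apart within them. A fit over all 4 libraries, with a term for inhibitor treatment, was tested with the quasi-likelihood method of edgeR. After Benjamini-Hochberg adjustment over 9329 features it called 284 (3.04%) different between the experiments. Of these 150 (1.61%) were higher and 134 (1.44%) lower in the CX4945 experiment, and 47 were also 2-fold apart between the untreated libraries. All 284 had the same sign in both pairs, which by itself shows no recurrence. The residual of this fit is the disagreement between the pairs, so a call all but requires them to agree. The call rests on 1 residual degree of freedom and depends on the tool, the inhibitor term and the libraries: DESeq2 called 11 and a fit without the inhibitor term 32. With 3 libraries that term leaves no residual degree of freedom, so fits leaving out 1 library were made without it and are to be set against the 32. They called 6 without the CX4945 library, 68 without the DMAT library, 104 without the CX4945 control and 190 without the DMAT control. All these fits include untreated libraries, so their calls are not independent of the untreated ratios. A call of the fit is named below as higher or lower in the CX4945 experiment. The counts of calls by list should be read with that range. They should also be set against the shares over all features tested, 1.61% higher and 1.44% lower.

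Of the 94 features at least 2-fold higher in the CX4945 control, 80 had 20 reads over the inhibitor libraries. In that pair 62 of them had the same sign, 31 were again at least 2-fold apart and 2 were 2-fold apart the other way. Of the 128 lower features 96 had 20 reads there, 80 had the same sign, 27 were again at least 2-fold apart and 0 went 2-fold the other way. Over all 9329 features with enough reads 60.7% had the same sign in both pairs, with a Pearson's r of 0.343 between the log2 ratios, a description over genes, and 4.19% were 2-fold apart in the inhibitor pair. The sign of the difference between untreated cultures was thus often, but not always, seen again in the treated cells of the same experiments. Most of these features were not 2-fold apart there. The median log2 ratio went from 1.17 to 0.65 for the higher features and from -1.18 to -0.51 for the lower ones. The features were chosen for a large ratio in the untreated pair, which by itself favours a smaller one in another pair. Under 50 reads over the untreated libraries were found for 53 of the 94 and 75 of the 128. The drop therefore does not show a weaker difference in treated cells.

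Genes of the ATF4 response and amino acid synthesis were lower in the CX4945 control. ATF4 is the transcription factor that cells raise when amino acids or folding capacity run short, and its targets include enzymes and carriers of amino acid supply. Of the 18 listed genes with at least 20 reads 17 were lower in the CX4945 control, 5 at least 2-fold, 13 had an interval below 1, and the median log2 ratio was -0.51. Promoter sequence of 3 of the 5 genes past 2-fold is printed, since these genes were lower together. It is from RefSeq, build GRCm38.p6, the 250 bases before the annotated start, and capitals mark TGATGNAA on either strand, the letters of a composite site of C/EBP and ATF factors.
Chac1: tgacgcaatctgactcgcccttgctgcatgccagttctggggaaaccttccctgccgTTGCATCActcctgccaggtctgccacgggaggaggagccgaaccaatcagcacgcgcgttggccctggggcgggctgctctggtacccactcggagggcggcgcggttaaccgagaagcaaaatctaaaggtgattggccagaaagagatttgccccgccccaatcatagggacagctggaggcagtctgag
Asns: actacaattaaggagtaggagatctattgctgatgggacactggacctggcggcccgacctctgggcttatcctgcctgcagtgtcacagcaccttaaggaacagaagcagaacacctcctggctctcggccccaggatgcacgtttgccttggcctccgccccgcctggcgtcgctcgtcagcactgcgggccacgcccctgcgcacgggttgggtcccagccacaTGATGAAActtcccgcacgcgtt
Trib3: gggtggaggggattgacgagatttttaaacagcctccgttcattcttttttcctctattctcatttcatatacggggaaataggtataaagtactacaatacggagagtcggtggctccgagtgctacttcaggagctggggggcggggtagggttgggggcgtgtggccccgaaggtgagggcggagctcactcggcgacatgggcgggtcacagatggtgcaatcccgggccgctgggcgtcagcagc
The Chac1 window is chr2:119350992-119351241 on the plus strand, the Asns window chr6:7693210-7693459 on the minus strand and the Trib3 window chr2:152344061-152344310 on the minus strand. The match lies 193 bases before the start in Chac1 and 23 bases before it in Asns, and the Trib3 window holds none. Cth and Slc7a3, the other listed genes past 2-fold, were not among the genes with a match. The motif occurs in 1134 of 32851 such windows (3.45%) and in 6 of the 19 listed genes that have one. It was picked, after the matches were seen, from 8 motifs searched in this list and in the sterol and fatty acid list below, where it occurs in 1 of 19 genes. Of the others, TTGCATCA, a form of the same letters, was found in 5 ATF4 list genes and 0 sterol list genes of 19 each (0.792% of all windows). GATTGGC was found in 8 and 6 (6.33% of windows), and TCACNCCAC and GTGNGGTGA in 0 and 1 each (1.05% and 1.11%). The remaining 3, longer forms of such elements, were found in no gene of either list. A match describes the letters and shows no binding.

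The size of the difference varied widely among these genes. Trib3, a pseudokinase that feeds back on ATF4 (chr2:152163158-152169768, build mm9), had 68 reads in the DMAT control and 5 in the CX4945 control, 11.3-fold lower (interval 4.6 to 35.8). Chac1, which degrades glutathione, had 41 and 3 reads, 11.3-fold lower (3.61 to 57.1). Cth, the last enzyme of cysteine synthesis, had 46 and 7 reads, 5.44-fold lower (2.44 to 14.3). These 3 genes are thinly covered in the CX4945 control, and the width of the intervals shows it. Asns, asparagine synthetase, had 144 and 32 reads, 3.73-fold lower (2.53 to 5.65), and the arginine carrier Slc7a3 50 and 14, 2.96-fold lower (1.61 to 5.79). Atf4 itself had 1467 and 829 reads, 1.47-fold lower (1.35 to 1.6). The serine pathway enzymes Psat1 (1500 and 938 reads), Psph (249 and 141) and Phgdh (998 and 685) were 1.32-fold, 1.46-fold and 1.21-fold lower, whereas Shmt2 (1644 and 1284 reads) had an interval that included 1. Gpt2 and Pck2, enzymes of alanine and phosphoenolpyruvate synthesis that were not on the list, were 5.44-fold (46 and 7 reads) and 4.5-fold (125 and 23 reads) lower.

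Not all of this recurred in the inhibitor pair. Asns had 86 reads in the DMAT library and 30 in the CX4945 library, and was lower in the CX4945 experiment by edgeR's quasi-likelihood test (log2 -1.58, SE 0.24, adjusted p = 0.00188). The stress genes Ddit4 (log2 -1.02, adjusted p = 0.00186 by the same edgeR test) and Sesn2 (219 and 103 reads between the untreated cultures, adjusted p = 0.00327) were the other 2 of 15 tested list members that passed, all 3 lower. Without the inhibitor term 2 members passed, and, also without that term, 0 when the CX4945 library and 5 when the DMAT library was left out. Trib3 had 16 and 11 reads in the DMAT and CX4945 libraries, and its edgeR adjusted p was 0.0662. Atf4 had 931 and 728 reads there, a log2 ratio of -0.04 against -0.55 between the untreated cultures. Relative to the other 3 libraries, Trib3 and Chac1 were thus high in the DMAT control alone, at 24.6 and 14.8 CPM against at most 6.3 and 3.15 CPM elsewhere. Chac1 and Cth had fewer than 20 reads in the inhibitor pair and were not tested.

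Sterol and fatty acid synthesis genes were lower in the CX4945 control, by small amounts for most and by more than 2-fold for Scd1, Scd2 and Fads2. These genes are driven by the SREBP factors, and activated T cells raise them to build membrane. Of 28 listed genes 27 were lower and 19 had an interval below 1, with a median log2 ratio of -0.40 and 3 past 2-fold. The exception was Fasn, fatty acid synthase, with 2131 and 1884 reads. Scd2, a stearoyl-CoA desaturase (chr19:44368166-44381354, mm9), had 2496 reads in the DMAT control and 773 in the CX4945 control, 2.67-fold lower (2.47 to 2.9). Its relative Scd1 had 93 and 17 reads, 4.53-fold lower (2.68 to 8.11), and the delta-6 desaturase Fads2 160 and 31, 4.28-fold lower (2.9 to 6.5). The neighbouring gene of the same class Fads1 had 137 and 109 reads with an interval that included 1. Cyp51, a sterol demethylase, had 954 and 520 reads, 1.52-fold lower (1.36 to 1.69). The regulator Srebf2 had 1085 and 689 reads, 1.3-fold lower (1.18 to 1.44).

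In the inhibitor pair the same list was lower by a larger median, with a log2 ratio of -0.96. By edgeR's quasi-likelihood test 19 of the 28 were lower in the CX4945 experiment and 0 higher, against 1.44% and 1.61% of all features tested. Scd2 had 2553 reads with DMAT and 298 with CX4945, and a fitted log2 difference of -2.05 (SE 0.19, adjusted p = 2.47e-05). Fads2 had 145 and 9 reads (log2 -2.67, adjusted p = 0.000131) and Scd1 92 and 2 reads (log2 -3.02, adjusted p = 0.00057 by the same edgeR test). Without the inhibitor term 4 were lower, and leaving out a library from that fit gave 2 without the CX4945 library, 4 without the DMAT library, 11 without the CX4945 control and 16 without the DMAT control, while DESeq2 called 0. In CPM, Scd2 and Fads2 in the CX4945 control lay below both libraries of the DMAT experiment and above the CX4945 library.

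Genes of naive and resting T cells were higher in the CX4945 control. Of the 22 listed genes with 20 reads, 16 were higher and 5 were past 2-fold, with a median log2 ratio of 0.34. The interval lay above 1 for 11 and below 1 for 1, Btg2 (330 and 228 reads). Il7r had 7 reads in the DMAT control and 37 in the CX4945 control, 6.38-fold higher (2.81 to 17), and the membrane protein gene Ms4a4b 31 and 89, 3.47-fold higher (2.28 to 5.4). S1pr1, the receptor that lets T cells leave lymph nodes, had 43 and 82, 2.3-fold higher (1.57 to 3.41), and Klf2, which drives S1pr1, had 8 and 19, 2.87-fold higher (1.2 to 7.57). The naive state factors Foxp1 (499 and 373 reads) and Bach2 (890 and 713 reads) had intervals that included 1. By the edgeR test 8 members were higher in the CX4945 experiment, against 1.61% of all features tested. Among them were Il7r, S1pr1, Igfbp4, Klf2, Actn1, Ms4a4b and Itga6. No member was called lower, with 3 lower at an unadjusted p under 0.05. Il7r had 5 reads with DMAT and 51 with CX4945, so that its level separated the experiments in both pairs (log2 3.13, SE 0.43, adjusted p = 0.00057 by edgeR). The fit without the inhibitor term called 2 members, and leaving out a library from that fit gave 0 without the CX4945 library, 2 without the DMAT control, 3 without the CX4945 control and 5 without the DMAT library.

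A trio of TNF family ligands that lie next to each other on chromosome 17 were also higher. Ltb (chr17:35331384-35333265, mm9) had 61 reads in the DMAT control and 132 in the CX4945 control, 2.61-fold higher (1.91 to 3.6). Lta (chr17:35340110-35342296) had 50 and 93, 2.25-fold higher (1.58 to 3.23), and Tnf, which lies between them (chr17:35336326-35338952), had 158 and 196, 1.5-fold higher (1.21 to 1.86). These encode the lymphotoxins and tumour necrosis factor. All were higher in the CX4945 experiment by edgeR, with adjusted p of 0.000165, 0.00057 and 0.00327, and all had their reads unique. In the inhibitor pair their reads were 98 and 224, 59 and 169, and 122 and 290.

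Immediate early genes, which follow receptor signalling within minutes to hours, pointed the same way. Of 16 listed genes with 20 reads 13 were higher in the CX4945 control and the median log2 ratio was 0.22. The interval lay above 1 for 6 of them and below 1 for 1. Egr3 had 34 and 71 reads, 2.52-fold higher (1.65 to 3.91), Egr1 259 and 415, 1.93-fold higher (1.65 to 2.27), and Nr4a1 271 and 344, 1.53-fold higher (1.3 to 1.8). These 3 with the phosphatase Dusp2 and the AP-1 subunit Jund were called higher in the CX4945 experiment by edgeR. That is 5 of 15 higher and 0 lower, against 1.61% and 1.44% of all features tested. The fit without the inhibitor term called 2, and leaving out a library from it gave 1 without the CX4945 library, 3 each without the DMAT control and the DMAT library and 4 without the CX4945 control. Fos (31 and 26 reads), Jun (54 and 46) and Junb (1078 and 961) had intervals that included 1. Socs3, the feedback inhibitor of IL-6 signalling, had 107 and 175 reads, 1.97-fold higher (1.54 to 2.54), and was called higher by edgeR (log2 1.35, SE 0.18, adjusted p = 0.000514). The STAT5 target Cish had 182 and 228 reads and was called higher too (adjusted p = 0.0101 by edgeR), with 39.8% of its reads unique. Stat3 itself had 872 and 668 reads and an interval that included 1.

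**Figure D3:**
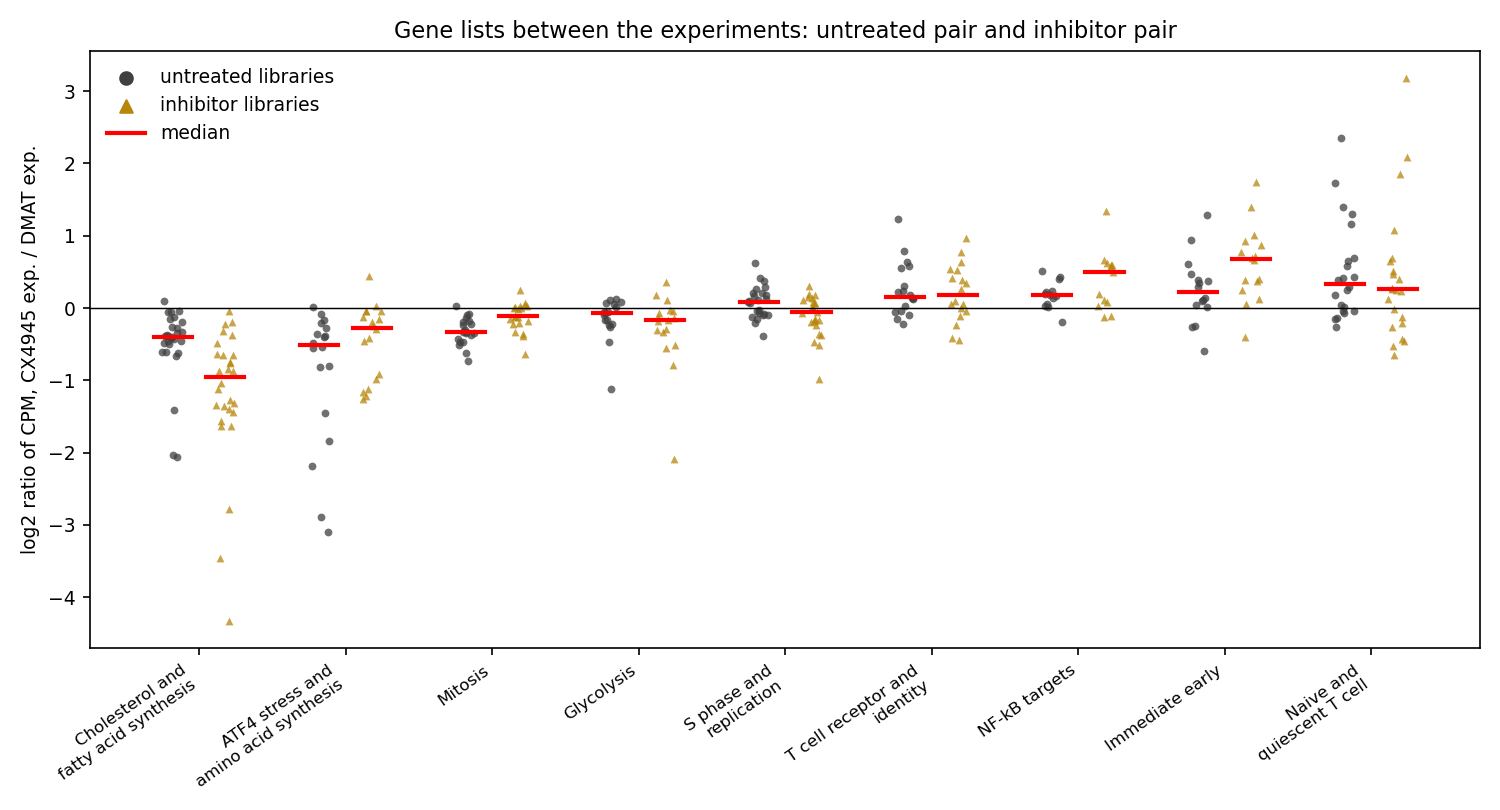
Log2 ratio of CPM (CX4945 experiment over DMAT experiment) of every listed gene with 20 reads over the untreated libraries, by gene list, for the untreated pair (grey circles) and the inhibitor pair (gold triangles), with red bars at the medians. Sterol and fatty acid genes lie below 0 in both pairs (medians -0.40 and -0.96), and immediate early and naive T cell genes have medians above 0 in both.

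Among Th17 genes the differences went both ways. Il17f had 1048 reads in the DMAT control and 600 in the CX4945 control, 1.45-fold lower (1.31 to 1.6). Il22 had 62 and 78 reads, 1.52-fold higher (1.07 to 2.16), and Il17a 22 and 22. In the inhibitor pair Il17f had 131 and 134 reads, a log2 ratio of 0.34 after scaling, and its edgeR adjusted p was 0.43. Lif was called lower in the CX4945 experiment, with 773 and 462 reads between the untreated cultures (adjusted p = 0.0312 by edgeR). Of 14 tested Th17 factors 3 were called lower and 0 higher, against 1.44% and 1.61% of all features tested. The 3 were Irf4 (2646 and 1765 reads, adjusted p = 0.00915 by edgeR), Hif1a (1312 and 886 reads, 1.23-fold lower) and Ahr (53 and 21 reads, 2.09-fold lower, 1.24 to 3.65). At an unadjusted p under 0.05 by edgeR 4 of the 14 factors were higher and 4 lower. Of the 15 factors with 20 reads, 3 had an interval above 1 and 5 below. Those above 1 were Bcl3 (126 and 150 reads), Rbpj (460 and 447) and Runx1 (109 and 119), all with no call. The factor Etv5, with 23 and 8 reads, was 2.38-fold lower (1.03 to 6.16) and too thinly covered in the inhibitor pair to be tested. Of 7 tested Th17 cytokine genes 3 were called higher, namely Ltb, Lta and Tnf, and 1 lower, Lif. Of 9 tested receptors 0 were called by edgeR and 3 had an unadjusted p under 0.05, all higher. The IL-18 receptor chain Il18r1, not tested, had 12 and 25 reads, 2.52-fold higher (1.22 to 5.49). The shared chain Il12rb1 had 539 and 612 reads, 1.37-fold higher (1.22 to 1.54), and an edgeR adjusted p of 0.0722.

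Ctla4, the inhibitory receptor of activated and regulatory T cells, was also lower in the CX4945 control. It had 453 reads in the DMAT control and 163 in the CX4945 control, 2.3-fold lower (1.92 to 2.77), and 375 and 153 in the inhibitor libraries. The edgeR fit gave a log2 difference of -1.09 (SE 0.12, adjusted p = 0.000165), and Ctla4 also passed with DESeq2 (adjusted p = 0.00862) and without the CX4945 library (adjusted p = 0.0442). Other activation genes lay on both sides. Tfrc (3883 and 2560 reads) and Irf4 were called lower and Egr1, Egr3, Nr4a1 and Il2rb higher, out of 23 tested. Icos (564 and 459 reads), Cd69 (482 and 400) and Pdcd1 (270 and 239) had intervals that included 1. Il2 had 1724 and 1089 reads, 1.31-fold lower (1.21 to 1.42), with no call. Of the 18 T cell identity genes, all tested, Thy1 (269 and 386 reads), Lcp2 (813 and 988 reads, 45.9% unique) and Lat (732 and 752 reads) were called higher. None was called lower. At an unadjusted p under 0.05 by edgeR 7 were higher and 2 lower. The interval lay above 1 for 9 and below 1 for 3, namely Cd28, Cd247 and Cd6. Over all features tested 1.61% were called higher and 1.44% lower, which also applies to the activation genes.

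Mitosis genes were slightly lower in the CX4945 control while the median of S phase genes lay just above 0. Of 20 mitosis genes 19 were lower and 11 had an interval below 1, with a median log2 ratio of -0.33. Mki67, the proliferation marker, had 2520 and 1645 reads and Top2a 3189 and 2090, with log2 ratios of -0.34 for both. By edgeR 3 of the 20 were called lower in the CX4945 experiment, against 1.44% of all features tested. They were Nusap1 (309 and 165 reads), Kif11 (844 and 518) and Cenpf (321 and 159). The fit without the inhibitor term called 0, and leaving out a library from it gave 1 without the DMAT library and 0 without any of the other 3. The median of the 24 S phase genes was 0.09, with 0 called by edgeR, and 2 higher and 3 lower at an unadjusted p under 0.05. That of the 24 MYC and ribosome biogenesis genes was 0.04, with 0 called by edgeR and 0 at an unadjusted p under 0.05. The median of the inhibitor pair was -0.12 for mitosis genes.

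Glycolysis and hypoxia genes showed a few differences. Slc16a3, the lactate exporter, had 128 and 48 reads, 2.21-fold lower in the CX4945 control (1.57 to 3.15), and Tpi1, triosephosphate isomerase, 2197 and 1319, 1.38-fold lower (1.29 to 1.48). With Eno1 (5497 and 3896 reads, 17.6% unique) these were the 3 of 17 glycolysis genes called lower by edgeR. Vegfa, the angiogenic growth factor, had 81 and 26 reads, 2.58-fold lower (1.64 to 4.18), and with Bnip3, Bnip3l and Higd1a made up the 4 of 15 hypoxia genes called lower. Hk1, Hk2 and Slc2a3 had intervals that included 1. The medians of these lists between the untreated libraries were -0.07 for glycolysis and -0.29 for hypoxia. Over all features tested 1.44% were called lower by edgeR.

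Trp53inp1, a gene induced by p53 (chr4:11083578-11101526, mm9), had the smallest p of the fit. It had 933 reads in the DMAT control and 241 in the CX4945 control, 3.21-fold lower (2.78 to 3.71), and 1086 and 200 in the inhibitor libraries. The edgeR fit gave a log2 difference of -1.90 (SE 0.11, adjusted p = 5.47e-08), and it passed under each of the 10 alternatives run for this fit, including DESeq2 and each library left out. The p53 target Ccng1 had 1121 and 568 reads (log2 -0.98, adjusted p = 0.0002 by edgeR) and Zmat3 362 and 179 (log2 -0.89, adjusted p = 0.00112 by edgeR). A list of 17 p53 targets was drawn up after these values were seen and is given as description only: 14 of 16 with enough reads were lower in the CX4945 control, with a median log2 ratio of -0.47. Mdm2 (415 and 310 reads), Bax (634 and 475) and Trp53 itself (664 and 552) had intervals that included 1.

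Among the 12 most extreme ratios each way, several genes have not yet been described. Gbp4, an interferon-induced GTPase, had 33 reads in the DMAT control and 73 in the CX4945 control, 2.67-fold higher (1.75 to 4.16), and 16 and 73 in the inhibitor libraries (adjusted p = 0.00219 by edgeR). Scml4 (15 and 38 reads), Slfn1 (22 and 46) and the kinase Sgk1 (20 and 40) were 3.06-fold, 2.52-fold and 2.41-fold higher and are among the calls of the edgeR fit, which includes the ratios that chose them. Tmem63a (20 and 43 reads), Trat1 (23 and 47), Crlf2 (25 and 50) and Tram2 (18 and 36) were between 2.41-fold and 2.6-fold higher with no call. In the other direction Myh10, a non-muscle myosin heavy chain, had 92 and 13 reads, 5.86-fold lower (3.26 to 11.4), with an edgeR adjusted p of 0.0374. The elongation factor Ell2 (63 and 13 reads) and the semaphorin Sema4f (55 and 15) were 4.01-fold and 3.04-fold lower and are among its calls too.

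Several groups showed few or no calls, and the 11 calls of DESeq2 were all among the 284. Of the 16 endoplasmic reticulum folding genes 0 were called by edgeR, with 1 higher and 3 lower at an unadjusted p under 0.05, although Herpud1 (193 and 102 reads) had an interval below 1. Of the 77 ribosomal protein genes 0 were called lower and 1 higher by edgeR. Between the untreated libraries 50 of them were lower in the CX4945 control. The interval lay below 1 for 26 and above 1 for 6, and the median log2 ratio was -0.04. Over all features compared, the interval lay below 1 for 9.77% and above 1 for 8.87%. It lay off 1 for 41.5% of all features with 1000 or more reads, a depth that most ribosomal protein genes reach. The count of intervals is thus not particular to ribosomal protein genes. Of 11 interferon response genes 1 was called, Gbp2 with 697 and 327 reads (adjusted p = 0.0269 by edgeR). Of the 3 CK2 subunits 0 were called by edgeR and 0 had an unadjusted p under 0.05: Csnk2a1 had 920 and 683 reads, Csnk2a2 207 and 196 and Csnk2b 402 and 370. Between the untreated libraries the interval lay below 1 for 1 of them, Csnk2a1, and above 1 for 0. Calls among the 10 genes of smallest p that were higher also included Hmha1 (396 and 537 reads), Tapbp (72 and 136), Als2cl (196 and 300), Gm20390 (110 and 251, 0% unique) and Rpsa-ps10 (75 and 129, 0.49% unique). Those that were lower also included Zfp52 (331 and 143) and Tuba1a (951 and 444, 18.6% unique). The 4 genes with under 50% unique reads, Lcp2, Gm20390, Rpsa-ps10 and Tuba1a, could share reads with related sequences.

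**Figure D4:**
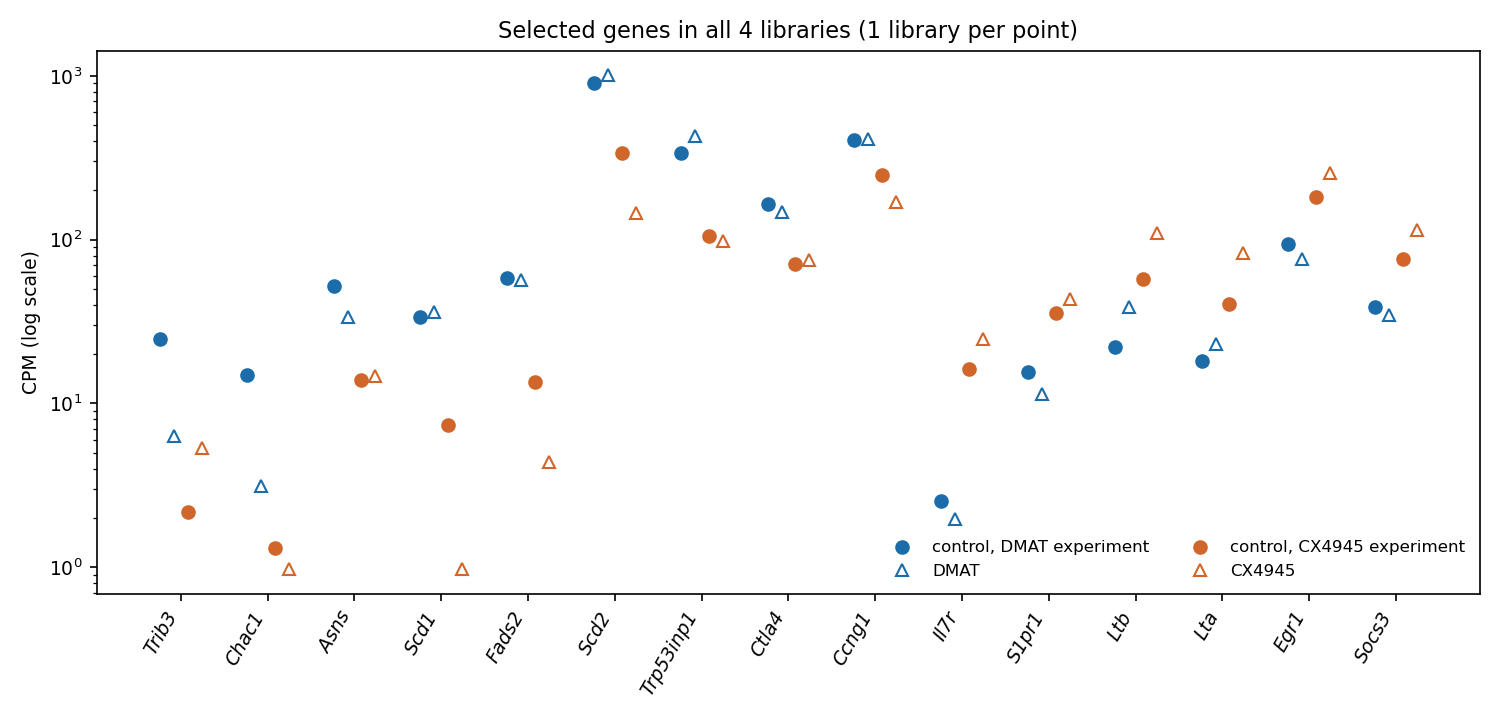
CPM (log scale) of 15 genes in the 4 libraries, with filled circles for untreated and open triangles for inhibitor libraries, blue for the DMAT and orange for the CX4945 experiment. Trp53inp1, Ctla4, Ccng1 and Il7r separate by experiment in both pairs, whereas Trib3 and Chac1 are high in the DMAT control alone.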

How the data were processed

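The members and gene lists were chosen with earlier results of these data known. Total RNA of 4 cultures was sequenced on a MiSeq, per the series' design text. The authors deposited per-feature tables on build mm9, for which the submitters' processing notes name CASAVA 1.8.2. No aligner, annotation or counting rule was given in the sources used here. Values analysed were the authors' deposited counts, the total exon reads of each feature, which include reads with several matches. The 9551 features without an exon length had no exon reads. TMM scaling came from edgeR 4.0.16 in R 4.3.3, and log2 ratios used a prior count of 2. Intervals are exact conditional (Clopper-Pearson) 95% intervals, and reads were not deduplicated by molecular identifiers. The fit needed 20 reads over each pair, and its SE is the absolute log2 value divided by the root of F. Fit and interval were tested on simulated data. The chi-square of the untreated libraries' counts per degree of freedom was 3.05, so they were not duplicates. Every group held 1 library, so the p-values measure no spread among replicates. They reflect how far the untreated and inhibitor pairs disagree, with a spread partly borrowed from other features. The differences may be technical only. Genes named were the 20 highest levels, the 12 most extreme ratios each way (at least 50 reads, 50% unique, interval off 1), the 10 smallest p each way and members of 36 lists; some genes are not reported here. Unique reads, other scalings (DESeq2 1.42.0), filters, prior counts and terms were tried as alternatives.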

Additional observations from a re-analysis of the deposited data

Results flagged for a closer look

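Gm11353 and Gm5601 differed at least 2-fold between the experiments in opposite directions in the untreated and the inhibitor pair, and this difference between pairs was not tested. Gm11353 had 5 and 16 reads in the DMAT and CX4945 controls, a log2 ratio of 1.58, and 50 and 8 reads in the DMAT and CX4945 libraries, a log2 ratio of -2.10, with 0% of its reads unique. Gm5601 had 21 and 51 reads in the controls, a log2 ratio of 1.46, and 42 and 8 in the inhibitor libraries, a log2 ratio of -1.86, with 2.78% of its reads unique.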

How the results depend on the processing

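Between the untreated libraries 222 features were 2-fold apart; 960 were without a filter beyond 1 read, 94 with at least 50 reads and 138 with a prior count of 5. DESeq2 size factors, no factor, unique reads, a prior count of 0.5 and, chosen after seeing the data, only features with at least 50% unique reads gave 174 to 263. The fit over both pairs called 284. DESeq2 called 11, the fit with no inhibitor term (no replicate block over the untreated and inhibitor pairs) 32 and that with no scaling factor 480. Leaving out each library in turn, which allows no inhibitor term and so compares with the 32, gave 6 without the CX4945 library, 68 without the DMAT library, 104 without the CX4945 control and 190 without the DMAT control. DESeq2 size factors in edgeR gave 408, unique reads 392, no filter 285 and, chosen after seeing the data, features with at least 50% unique reads 245. Levels from unique reads moved for 19 of the 20 highest features. Signs were checked for at most 28 genes in the untreated ratio and 38 in the fit, depending on the alternative, and none was reversed. Other named genes and the signs of list medians were not checked in this way. An alternative with the deposited RPKM was listed but not run. Depth limits the low genes: 11.1% of features with 20 to 49 reads were 2-fold apart.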
